A study of Mus musculus with 6 samples.

Results

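The transcripts described here encode 10 antioxidant enzymes of mouse brain: the superoxide dismutases Sod1, Sod2 and Sod3, catalase (Cat), the glutathione peroxidases Gpx1 and Gpx4, the peroxiredoxin Prdx1, and Nqo1, Hmox1 and Gclc, which are known targets of the transcription factor Nrf2. The rule lists them by name and uses no measured value, but the enzymes were chosen with earlier results of these data known. All 10 were present among the 51826 genes of the deposited table. The tissue carried the label of the hypothalamic paraventricular nucleus. It was sequenced in 6 libraries, of which 3 were wild type (WT) and 3 came from mice whose glutamatergic neurons had Adam17 knocked out (KO). In both genotypes replicates 1 and 2 were male and replicate F1 was female. No other allele and no drug treatment is named for either group, and the age, the strain and the Cre line or promoter behind the knockout are not stated in those labels. It is also not stated whether a library came from 1 animal or from pooled tissue, so p-values measure only the spread between these libraries, which may be technical. The comparison asked how the knockout in glutamatergic neurons alters gene expression in the whole tissue. In such tissue, fewer cells of a type and less RNA per cell cannot be told apart.

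Superoxide dismutases turn superoxide into hydrogen peroxide, and catalase, glutathione peroxidases and peroxiredoxins then remove the peroxide. Glutathione, whose synthesis begins with glutamate-cysteine ligase, supplies electrons to the glutathione peroxidases. Nrf2, encoded by Nfe2l2, is held back by Keap1 in unstressed cells and, when released, binds antioxidant response elements together with small Maf proteins to switch on genes of this defence. In the paraventricular nucleus, superoxide made by NADPH oxidases is a known part of angiotensin signalling to the sympathetic system.

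Because Nrf2 acts through a known core motif, the promoter windows of the enzymes were searched on both strands for TGACNNNGC, the core of the antioxidant response element, and for GGGCGG, the GC box bound by Sp1-type factors. The windows are those of RefSeq on GRCm38.p6, running from 250 bases before to 50 bases after a start, and 7 of the 10 enzymes were matched by symbol; Sod3, Hmox1 and Gclc were not. TGACNNNGC was found for 2 of these 7, Sod1 and Prdx1, against 14.0% of all 27025 symbols in that table. GGGCGG was found in at least 1 window of 7 of 7, against 38.2% of those symbols; a symbol can have several windows. The stretches with the response element core are shown for Sod1 (chr16:90220512-90220741) and Prdx1 (chr4:116685349-116685543), both on the plus strand and ending at the base before the deposited start of the gene. Capitals mark the match, which in both reads on the opposite strand. It spans bases -56 to -48 from the RefSeq start of Sod1 and bases -133 to -125 from that of Prdx1. A match is a stretch of letters and not evidence of binding. The windows reach only 250 bases before a start, so a window without a match does not speak for sequence farther out.
Sod1: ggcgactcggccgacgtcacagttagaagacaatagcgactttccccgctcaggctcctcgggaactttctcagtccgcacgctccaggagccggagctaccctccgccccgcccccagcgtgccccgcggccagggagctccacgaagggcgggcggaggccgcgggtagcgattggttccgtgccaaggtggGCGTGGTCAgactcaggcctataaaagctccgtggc
Prdx1: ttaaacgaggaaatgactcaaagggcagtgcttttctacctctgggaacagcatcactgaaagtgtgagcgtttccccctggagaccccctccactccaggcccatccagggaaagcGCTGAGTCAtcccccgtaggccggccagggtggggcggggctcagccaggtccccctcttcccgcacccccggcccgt

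The libraries held between 35114426 and 54421330 counts. Levels are given as CPM, counts scaled to library size with the TMM factors of edgeR, and folds as log2 values, KO minus WT. Values of single libraries are listed in the order replicate 1, 2 and F1. KO replicate 1 stood apart from the other 5 libraries: mitochondrially encoded genes took 20.6% of its counts, against 7.22% to 9.20% elsewhere, and it was the highest or lowest library for 57.8% of all 18956 genes tested, against 22.7% to 40.4% for each of the others. Its levels also ran with transcript length. Against the mean of the other 5 libraries, genes of at most 1000 bases had a median log2 deviation of -0.32 in it and genes over 6000 bases one of 0.14, whereas the medians of the other libraries stayed between -0.05 and 0.10 in every length class. The markers of cortex and hippocampus summed to 532 CPM in this library against 243 to 378 CPM in the other 5. Those of thalamus summed to 250 CPM against 68.2 to 164 CPM. Such sums also set WT replicate F1 apart from the other 5, with 353 CPM for striatum against 771 to 1108 CPM. For choroid plexus it had 167 CPM against 328 to 731 CPM. Of 17 marker lists, the sum for neurons was higher in every KO library (6099 to 7726 CPM) than in any WT library (4935 to 6089 CPM). That for ependyma was lower (17.6 to 23.0 against 23.7 to 27.3 CPM). Singly, 1 of 6 neuron markers and 2 of 5 ependyma markers had no overlap between the genotypes, against 13.9% of all genes. The sum for glutamatergic neurons, the cells of the knockout, overlapped, at 796.5 to 894.1 CPM in WT and 773.2 to 1054 CPM in KO. Because KO replicate 1 stood apart most often, the fold of each enzyme is given with and without it. The part of these differences in the results was not tested. Of the markers of the labelled nucleus, none was at the floor of 3 counts in all libraries, but Sim1, which defines its neurons, reached only 0.63 to 2.51 CPM, and Avp ranged from 5.25 to 38.2 CPM. Adam17 itself gave 17.1, 17.2 and 15.6 CPM across WT, and 15.4, 14.6 and 13.9 CPM across KO. This is a log2 fold change of -0.19 (SE 0.11, edgeR adjusted p = 0.747), and the deleted part of the gene is not named in the labels, so a level over the whole gene checks the genotypes only in part.

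Per transcript length the 10 enzymes covered about 2 orders of magnitude. In the deposited TPM, which corrects for length, Sod1, the cytosolic copper-zinc dismutase, led at 514 ± 118 (SD, n = 6 libraries), followed by Gpx4, which reduces lipid peroxides in membranes, at 469 ± 126. Sod1 was above Gpx4 in 6 of 6 libraries, although their ranges overlapped. Gpx1, the cytosolic glutathione peroxidase, followed at 96.1 ± 54.8 TPM. Every library had less Gpx1 than any library had Gpx4.

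**Figure D1:**
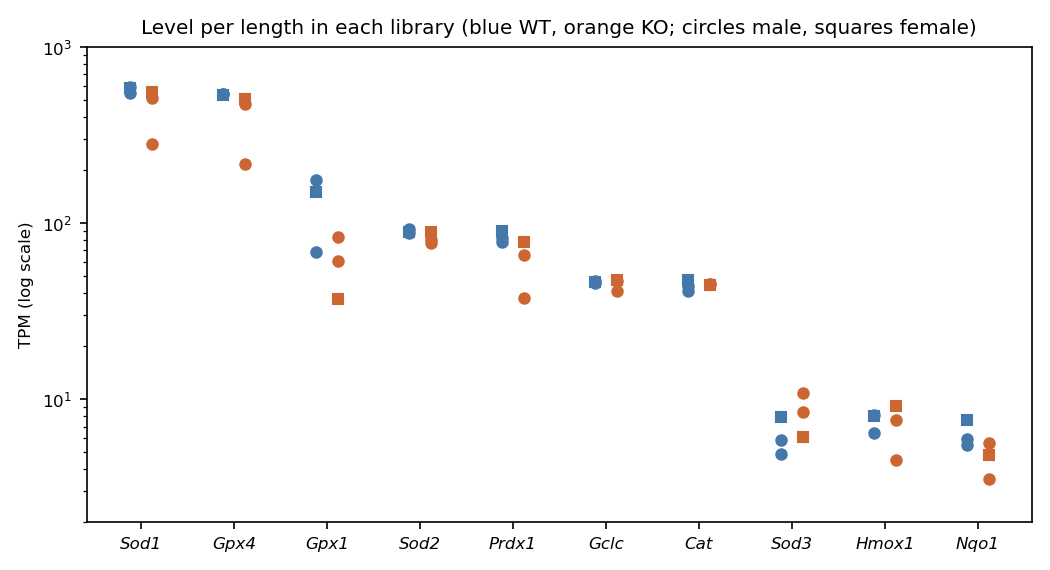
Level of each enzyme in TPM (log scale) in the 6 libraries, WT in blue and KO in orange, circles male and squares female, ordered by the mean. Sod1 and Gpx4 lie between 217 and 592 TPM, the middle 5 enzymes between 37.2 and 176, and Sod3, Hmox1 and Nqo1 between 3.53 and 10.8.

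Sod2, the manganese dismutase of mitochondria, had 85.7 ± 6.04 TPM, and Prdx1, a cytosolic thioredoxin-dependent peroxidase, 72.2 ± 18.7 TPM. Gclc, the catalytic subunit of glutamate-cysteine ligase, and Cat, the peroxisomal catalase, lay side by side at 45.8 ± 2.32 and 44.7 ± 1.97 TPM, and Gclc was above Cat in 4 of 6 libraries. The lowest were Sod3, the secreted dismutase of the extracellular space, at 7.36 ± 2.17 TPM, Hmox1, the inducible haem oxygenase, at 7.31 ± 1.62 TPM, and Nqo1, a quinone reductase, at 5.51 ± 1.34 TPM. Along this order the ranges of neighbours were separate at only 2 steps, from Gpx4 to Gpx1 and from Cat to Sod3. Hmox1 was above Nqo1 in 6 of 6 libraries, whereas Sod3 was above Hmox1 in 2 of them.

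No enzyme passed the threshold of adjusted p below 0.05 between KO and WT. In edgeR's quasi-likelihood test with sex as a term, 0 of 10 were past it, where 1 of 18956 genes was (0.00528%). DESeq2 and limma on TPM also had 0 of 10 past an adjusted p of 0.05. At an unadjusted p below 0.05 edgeR held 0 of 10, against 6.38% of its genes. By the same criterion DESeq2 held 1 of 10, Sod3 (DESeq2 adjusted p = 0.679), and limma on log2(TPM + 1) held 1 of 10, Gpx1 (limma adjusted p = 0.552). The share of all genes at that p was computed for edgeR alone, so the counts of DESeq2 and limma cannot be set against a background. The log2 fold changes were above 0 for 5 enzymes and below 0 for 5, with a median of 0.02, where the median of all genes was 0.00 to 2 decimals. A p that misses the threshold does not show that the genotypes are equal, and the standard errors below give the size of difference left within the noise.

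**Figure D2:**
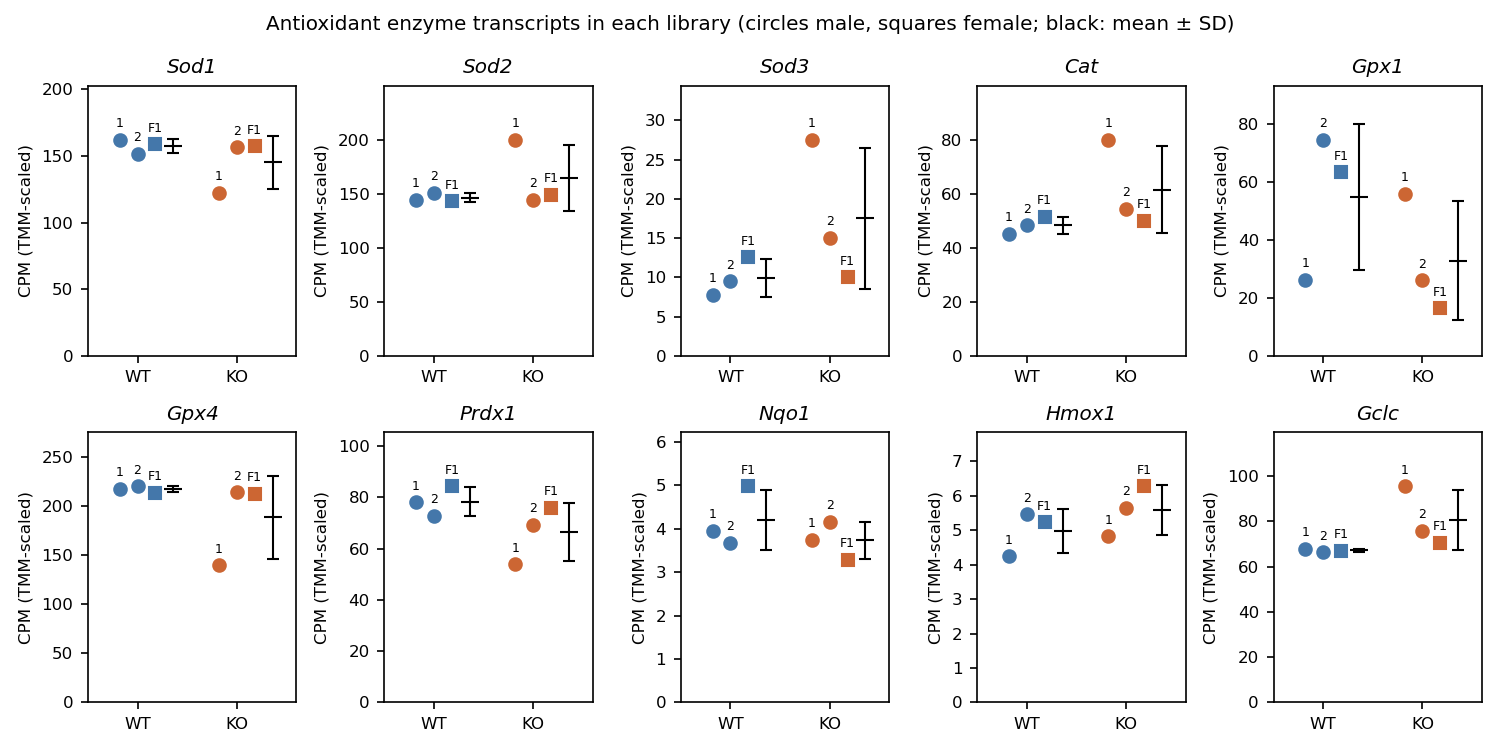
Level of each enzyme in CPM (TMM-scaled, axes from 0) in each library, labelled by replicate number, with circles for male and squares for female libraries. Black bars give the mean ± SD of the 3 libraries of a genotype. KO replicate 1 is the highest library for Sod2, Sod3, Cat and Gclc and the lowest for Sod1, Gpx4 and Prdx1.

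Among the dismutases, Sod1 (ENSMUSG00000022982, chromosome 16, 90220742 to 90226322, plus strand) gave 162, 152 and 159 CPM across WT, and 123, 157 and 157 CPM across KO. Only KO replicate 1 lay below the WT range. The fold on the log2 scale was -0.12 (SE 0.12, edgeR adjusted p = 0.822) and became -0.0067 (SE 0.062) without that library. A processed copy 97.8% identical over 465 bases, Gm8566, held 2 to 6 counts per library, and in GENCODE M21 the Scaf4 gene of the opposite strand runs 650 bases into the locus without sharing exon bases.

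Sod2 (ENSMUSG00000006818, chromosome 17, 13007839 to 13018119, plus strand) gave 144, 151 and 143 CPM across WT, and 200, 144 and 149 CPM across KO. Here KO replicate 1 was the only library above the WT range, and the other 5 lay within 8 CPM of each other. Its fold of 0.17 (SE 0.14, adjusted p = 0.796 in edgeR) fell to 0.0081 (SE 0.062) without it. Its sign depended on the scaling, at -0.02 with library totals and -0.14 in TPM. Those scalings moved the median of all genes to -0.17 and -0.25, and Sod2 stayed above that median in both.

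Sod3 (ENSMUSG00000072941, chromosome 5, 52363791 to 52371418, plus strand) was the most variable dismutase, with 7.80, 9.49 and 12.6 CPM across WT, and 27.5, 15.0 and 10.02 CPM across KO. Both male KO libraries were above all 3 WT libraries, and the female KO library was below the female WT library. On the log2 scale the difference was 0.76 (SE 0.40, edgeR adjusted p = 0.744), 0.33 (SE 0.29) without KO replicate 1 and 1.30 (SE 0.30, adjusted p = 0.451) between the males alone. Vascular smooth muscle is a known source of this enzyme, and the summed markers of pericytes and smooth muscle gave 174, 166 and 225 CPM across WT, and 226, 202 and 188 CPM across KO. The male KO libraries were thus above the male WT libraries, and the female KO library below the female WT library, in both measures. Of the 17 marker lists the astrocyte sum alone shared this pattern, with 1658, 1743 and 2041 CPM across WT, and 1908, 1981 and 1597 CPM across KO. The part of either cell type in the result was not tested.

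Cat (ENSMUSG00000027187, chromosome 2, 103453849 to 103485160, minus strand) gave 45.2, 48.4 and 51.4 CPM across WT, and 79.9, 54.4 and 49.98 CPM across KO. The males of KO were above every WT library, and the female KO library lay inside the WT range. A fold of 0.33 (SE 0.19, edgeR adjusted p = 0.745) dropped to 0.11 (SE 0.089) without KO replicate 1. In TPM the KO libraries were nearly level, at 45.4, 44.9 and 44.7. The fold of Cat in TPM was 0.02, above the median of all genes in TPM that is given for Sod2.

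Gpx1 (ENSMUSG00000063856, chromosome 9, 108338903 to 108340343, plus strand) varied more between libraries than any other of the 10, with a 4.52-fold span from lowest to highest, against 3.53-fold for Sod3 and 1.32-fold to 1.77-fold for the rest. It gave 26.4, 74.6 and 63.5 CPM across WT, and 56.0, 26.1 and 16.5 CPM across KO. In CPM each genotype therefore held high and low libraries: WT replicate 1 lay beside KO replicate 2, and KO replicate 1 fell below the WT female. In TPM the values were 68.4, 176 and 150 across WT, and 83.7, 60.6 and 37.2 across KO. There KO replicate 1 lay closer to WT replicate 1 than to the WT female. The log2 fold change was -0.83 (SE 0.58, edgeR adjusted p = 0.777), and its size turned on single libraries. It was -1.36 (SE 0.56, adjusted p = 0.602) without KO replicate 1, -1.34 without WT replicate 1, -0.53 without WT replicate 2 and -0.30 between the males alone, the contrast that is left without either female library. Counting error was at most 3.9% of a value, far below this spread. Gpx1 is abundant in red cells, whose markers summed to 338, 302 and 383 CPM across WT, and 190, 318 and 542 CPM across KO. The part of these cells in the spread of Gpx1 was not tested.

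Gpx4 (ENSMUSG00000075706, chromosome 10, 80047166 to 80056439, plus strand) was nearly level outside KO replicate 1, with 218, 220 and 214 CPM across WT, and 140, 214 and 213 CPM across KO. The other 5 libraries lay within 8 CPM of each other, and KO replicate 1 lay far below them. The fold was -0.21 (SE 0.17, edgeR adjusted p = 0.794) with that library and -0.020 (SE 0.055) without it. In TPM every KO library lay below the WT range, with 539, 540 and 534 TPM across WT, and 217, 476 and 510 TPM across KO. A pseudogene 99.7% identical over 762 bases, Gpx4-ps2, held 120 to 349 counts per library against 4029 to 12583 for Gpx4, so a small share of its reads may have been split.

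Prdx1 (ENSMUSG00000028691, chromosome 4, 116685544 to 116700822, plus strand) gave 78.1, 72.7 and 84.2 CPM across WT, and 53.9, 69.3 and 75.8 CPM across KO. Of the KO libraries 2 lay below the WT range, and the female KO library lay inside it. This gave a log2 difference of -0.24 (SE 0.13, adjusted p = 0.744 in edgeR) and -0.13 (SE 0.067) without KO replicate 1. Its 3 processed copies held at most 4 counts in any library. In TPM every KO library of Prdx1 lay below the WT range, with 82.4, 78.5 and 90.4 TPM across WT, and 37.6, 66.1 and 78.1 TPM across KO.

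Of the Nrf2 targets, Gclc (ENSMUSG00000032350, chromosome 9, 77754535 to 77794485, plus strand) was the only enzyme of the 10 whose genotypes did not overlap in CPM. It gave 67.9, 66.4 and 67.0 CPM across WT, and 95.4, 75.9 and 70.4 CPM across KO. Among all genes 13.9% had no overlap in CPM, 6.61% with KO higher and 7.32% with KO lower, so 1 of 10 is near the background. The log2 fold change of Gclc was 0.26 (SE 0.13, edgeR adjusted p = 0.738), 0.13 (SE 0.065) without KO replicate 1, and -0.03 in TPM, where its genotypes overlapped and the median of all genes was -0.25. In TPM it was Gpx4 and Prdx1 that did not overlap, with KO lower and a log2 fold change of -0.52 for each. The share of all genes without overlap in TPM was not computed.

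Hmox1 (ENSMUSG00000005413, chromosome 8, 75093621 to 75100589, plus strand) was low throughout, with 4.24, 5.47 and 5.23 CPM across WT, and 4.83, 5.66 and 6.27 CPM across KO. The female KO library was the highest and WT replicate 1 the lowest, with a log2 fold change of 0.16 (SE 0.17, edgeR adjusted p = 0.827) that was 0.24 without KO replicate 1 and -0.11 in TPM. Nqo1 (ENSMUSG00000003849, chromosome 8, 107388225 to 107403206, minus strand) gave 3.95, 3.68 and 4.98 CPM across WT, and 3.75, 4.16 and 3.28 CPM across KO. Its extremes were the 2 female libraries, with WT highest and KO lowest. Its log2 fold change of -0.17 (SE 0.20, edgeR adjusted p = 0.850) was -0.18 without KO replicate 1 and became 0.05 between the males alone. Counting error reached 8.5% for Hmox1 and 9.6% for Nqo1 in their lowest libraries.

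**Figure D3:**
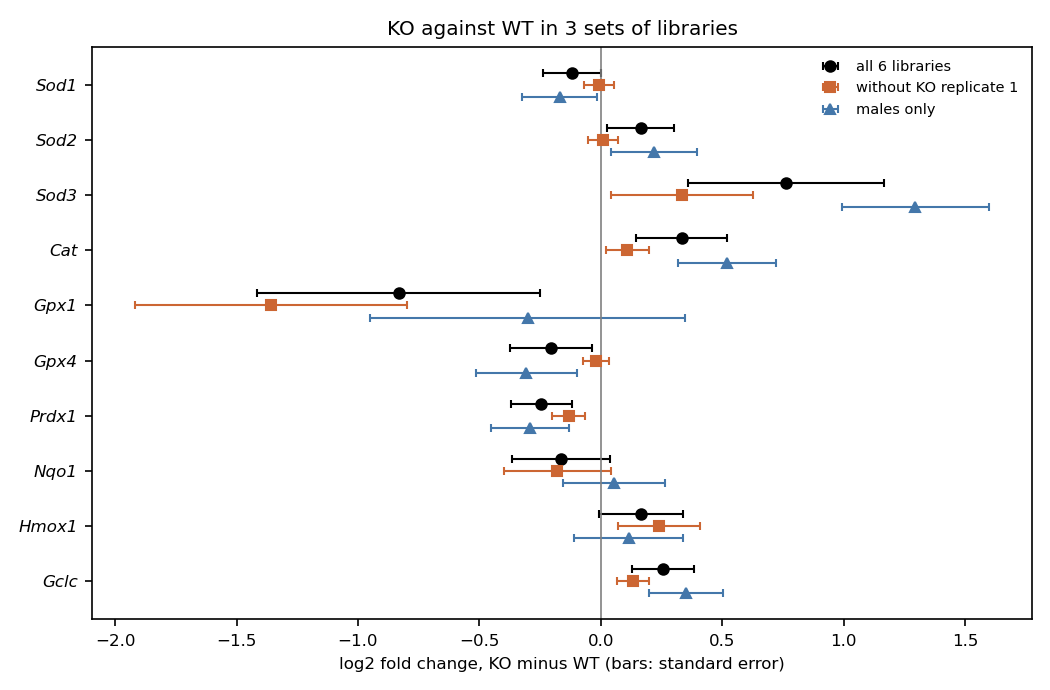
Log2 fold change of each enzyme, KO minus WT, with standard errors, from all 6 libraries (black), without KO replicate 1 (orange) and from the 4 male libraries (blue). Without KO replicate 1, Sod1, Sod2 and Gpx4 lie within 0.02 of 0, and Gpx1 lies farthest from it at -1.36.

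KO replicate 1 was the highest or lowest library for 7 of the 10 enzymes, against 57.8% of all genes. Set beside genes of like transcript length, a comparison chosen after the values were seen, its deviations differed from enzyme to enzyme. Sod1, with an implied transcript of 726 bases, deviated by -0.36 on the log2 scale where its length class had a median of -0.32, which put it at the 46.7th percentile of that class. Nqo1 and Hmox1 were likewise near the middle of theirs, at percentiles 58.2 and 52.4. Gpx4 (-0.62) and Prdx1 (-0.49) were low for their length, at percentiles 7.5 and 8.8. On the other side, Sod2 (0.45) and Gclc (0.46) were at percentiles 83.9 and 88.2, Cat (0.68) at 95.5, Gpx1 (0.67) at 96.8 and Sod3 (1.35) at 99.4.

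**Figure D4:**
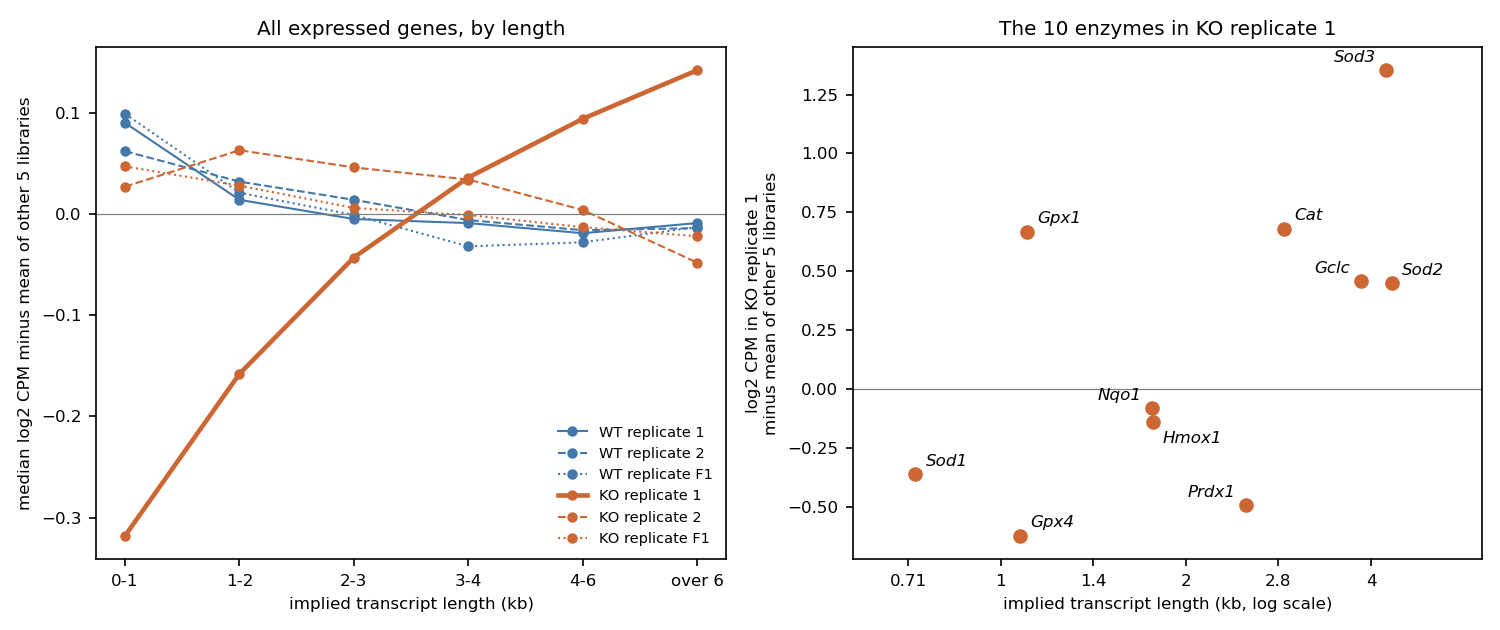
Left, median log2 deviation of each library from the mean of the other 5, for 12059 genes with a mean of at least 5 CPM, in 6 classes of implied transcript length. Right, the deviation of the 10 enzymes in KO replicate 1 against their implied length (log scale). KO replicate 1 runs from -0.32 for the shortest to 0.14 for the longest genes, and the enzymes spread from -0.62 (Gpx4) to 1.35 (Sod3).

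Between the sexes, 2 female libraries against 4 male ones, 0 of 10 enzymes passed the threshold in edgeR, where 8 genes did (0.0422%), and 0 of 10 had an unadjusted p below 0.05, against 4.58% of all genes. The smallest p belonged to Prdx1, with a log2 difference of 0.23, female minus male (SE 0.13, edgeR adjusted p = 0.941). Whether the knockout acted alike in both sexes was tested by the interaction, which rests on 1 female library per genotype and 2 residual degrees of freedom. It called 0 of 10 enzymes and 14 genes (0.0739%). At an unadjusted p below 0.05 it held 1 of 10, Sod3, against 7.42% of all genes. The interaction of Sod3 was -1.63 (SE 0.53, edgeR adjusted p = 0.50), that is, a KO effect lower in the female pair than in the males, and -1.13 without KO replicate 1. Without KO replicate 2 the fit has 1 residual degree of freedom, and KO replicate 1 is its only male KO library. The interaction in that fit was -2.0 for Sod3, -0.81 for Cat and 0.64 for Gpx4.

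Around the enzymes, 8 lists of related genes were described by the same fit, and none of their genes passed the threshold in edgeR. Among all genes 49.4% were above 0, and 13.9% had no overlap between the genotypes. Of the 9 genes that control Nrf2, 5 were above 0 with a median of 0.01. Nfe2l2 had 16.9, 15.9 and 17.3 CPM across WT, and 18.0, 17.2 and 16.9 CPM across KO, a log2 fold change of 0.06 (SE 0.11), and Keap1 had one of -0.01 (SE 0.13). The small Maf genes Maff (0.74, SE 0.43) and Mafg (-0.19, SE 0.14) had the smallest p of this list. Maff was low, with 0.64, 1.86 and 2.004 CPM across WT, and 2.75, 2.50 and 2.13 CPM across KO.

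Of 13 genes for glutathione synthesis and recycling 7 were above 0, with a median of 0.01. Gclm, the partner subunit of Gclc, gave 52.0, 37.9 and 42.1 CPM across WT, and 64.3, 38.2 and 37.5 CPM across KO, so KO replicate 1 was its highest library, as it was for Gclc, and the genotypes overlapped. Gss, which completes glutathione, was with 16.4, 17.4 and 17.7 CPM across WT, and 14.6, 15.1 and 15.2 CPM across KO, without overlap, at -0.20 (SE 0.11, edgeR adjusted p = 0.744). The cystine carrier Slc7a11 had a log2 fold change of -0.23 (SE 0.15).

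The list of other peroxidases and thioredoxins had a median of -0.13, with 3 of its 17 tested genes above 0; Gpx2 was not tested. KO replicate 1 was the lowest library for 10 of these 17, against 29.5% of all genes, and without it the median was -0.05 with 6 of 17 above 0. Genotypes did not overlap for 4 of the 17, with Gpx7 higher in KO and Prdx3, Prdx5 and Txnrd1 lower. Txnrd1, the cytosolic thioredoxin reductase, gave 63.0, 58.4 and 55.9 CPM across WT, and 55.1, 40.0 and 52.1 CPM across KO, at -0.27 (SE 0.15, edgeR adjusted p = 0.745) and -0.38 without KO replicate 1. The peroxiredoxins Prdx2 (-0.15, SE 0.11) and Prdx6 (-0.09, SE 0.11) lay below 0, and the methionine sulfoxide reductase Msra one of 0.31 (SE 0.14). Of 20 other Nrf2 targets 7 were above 0, with a median of -0.03 and no gene without overlap; without KO replicate 1, 11 were above 0 and the median was 0.03. By p, the glutathione transferases Gstm1 (0.24, SE 0.14) and Gstp1 (-0.15, SE 0.13) led them.

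Among the sources of oxidants, 12 of 17 genes were tested, with a median of -0.05, and 5 were not (Nox1, Nox3, Noxa1, Duox1 and Duox2). Rac1, a small GTPase that also activates NADPH oxidases, gave 340, 141 and 140 CPM across WT, and 524, 379 and 354 CPM across KO. All 3 KO libraries were above all 3 WT libraries, but WT replicate 1 lay close to the KO range. In TPM the genotypes overlapped, with WT replicate 1 at 193 and KO replicate 1 at 186. The log2 fold change of 1.05 (SE 0.34, unadjusted p = 0.0222) had an edgeR adjusted p of 0.735 and was 0.96 without KO replicate 1. The Rac1 locus overlaps that of Daglb, and whether the counting used strand is not stated. The same limit holds for Adam17, Keap1, Mafg, Gss, Gclm, Prdx2 and Lrp8, whose loci also overlap those of other tested genes. Xdh, xanthine dehydrogenase, had a log2 fold change of 0.20 (SE 0.13).

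The 7 genes that supply selenium and selenocysteine, on which Gpx1 and Gpx4 depend, had a median of 0.00 to 2 decimals, with 3 of 7 above 0 and, without KO replicate 1, 6 of 7. Selenop, which carries selenium, was at 0.18 (SE 0.15). Its receptor Lrp8 had 50.9, 56.8 and 83.8 CPM across WT, and 102, 91.4 and 50.9 CPM across KO, so that KO was above WT in the males and below it in the female pair (interaction -1.57, SE 0.24, edgeR adjusted p = 0.178). The 10 genes of lipid peroxidation and iron had a median of -0.05, and Ncoa4, the ferritin cargo receptor, had an unadjusted p of 0.0464, with a WT mean of 59.2 ± 3.61 CPM and a KO mean of 49.4 ± 5.77 CPM (SD, n = 3; -0.26, SE 0.11, edgeR adjusted p = 0.735). Acsl4, which activates polyunsaturated fatty acids, had the same arrangement as Lrp8, with 40.1, 42.7 and 71.0 CPM across WT, and 104, 76.5 and 38.8 CPM across KO (interaction -2.0, SE 0.32, edgeR adjusted p = 0.190). Both are part of the share of genes with an unadjusted interaction p below 0.05 given above. Of the 8 regulators of Sod2 and Cat, with a median of -0.01, the factor Foxo1 had an unadjusted p of 0.0181 with 54.7, 46.6 and 36.1 CPM across WT, and 72.9, 56.3 and 57.7 CPM across KO (0.46, SE 0.15, edgeR adjusted p = 0.735). The genotypes of Foxo1 did not overlap in CPM but did in TPM, and its log2 fold change was 0.38 without KO replicate 1. Foxo4 had a log2 fold change of -0.28 (SE 0.13).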

How the data were processed

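Messenger RNA was sequenced in 3 WT and 3 KO libraries of mouse tissue. The submitters' processing notes list Trimmomatic 0.36, FastQC 0.11.2 and bedtools 2.26.0. Not given in the sources used here: aligner, counter, strand setting and genome build. Per the file headers, the authors deposited raw counts, TPM and FPKM for every gene and library. The deposited FPKM served only to give the transcript length implied by the deposited count. Coordinates are the deposited ones, read as GRCm38, since 99.6% of the identifiers matched GENCODE M21 and 94.1% of these had identical coordinates.

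Counts were filtered with filterByExpr (18956 genes) and scaled by TMM. All genes were fitted together in edgeR 4.0.16 (R 4.3.3) with robust quasi-likelihood fits on genotype and sex. The interaction added their product, and p-values were adjusted by Benjamini-Hochberg over all genes at 0.05. Each SE is the fold (log2) over the root of its F statistic. A floor of 3 counts equals 0.055 to 0.085 CPM; floors and counting errors cover counting error only. The fit was checked on simulated counts with the same spread for all genes and no library set apart. That check does not cover a library that deviates as KO replicate 1 does. Near-identical copies were sought in GENCODE transcripts with BLAST 2.17.0 (at least 300 bases at 90%).

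The enzymes and the gene lists were chosen with earlier results of these data known. Beside the 10 enzymes, Adam17, Nfe2l2, Keap1, Prdx2, Prdx6, Gclm and Txnrd1 were always named, and from each list up to 4 genes past the threshold or, with none, the 2 with the smallest p. Length classes, counts of extreme libraries, the searches for copies and motifs, the lists without KO replicate 1, and the markers set beside Sod3 and Gpx1 were chosen after the values were seen. The results were recomputed with DESeq2 size factors, library totals, other filters, DESeq2 1.42.0, limma 3.58.1 on log2(TPM + 1) and log2(TPM + 0.1), no sex or genotype term, a replicate block, males only, each library left out, and mitochondrial genes left out.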

Additional observations from a re-analysis of the deposited data

How the results depend on the processing

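None of the 10 enzymes passed the threshold between KO and WT or between the sexes under any of the alternatives run. For the interaction, 0 passed with all libraries and in each alternative except that without KO replicate 2. There KO replicate 1 was the only male KO library, so that fit is described by its effect sizes alone. Genes past the threshold between KO and WT numbered 1, and 4 with no filter, 75 with DESeq2, 4 with limma on log2(TPM + 1), 5 on log2(TPM + 0.1), 3 with no sex term, 18 in males only and 0 to 20 with 1 library left out (0 without WT replicate 1, WT replicate 2 or KO replicate 2, 7 without KO replicate 1, 20 without WT replicate F1, 15 without KO replicate F1). Between the sexes they numbered 8, and 13 with no filter, 52 with DESeq2, 18 with limma on log2(TPM + 1) and 6 to 25 with 1 library left out. For the interaction they numbered 14, and 1 with library totals, 36 with no filter, 237 with DESeq2, 30 with limma on log2(TPM + 1), 644 without its filter and 159 to 1493 with 1 library left out. The causes were not tested.

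Of the KO effects, 4 of 10 changed sign in at least 1 of 18 alternatives. Sod2 was at -0.015 with library totals, and at -0.136 with TPM + 1, filtered or not, and -0.137 with TPM + 0.1. Hmox1 was at -0.112 and -0.133 and Gclc at -0.033 and -0.034 in these TPM fits. The TPM fits moved the median of all genes to -0.25, -0.30 and, unfiltered, -0.12. Nqo1 was at 0.054 in males only and without either female library, which is the same contrast, and at -0.27 without KO replicate 2, the lowest with 1 library left out. The sex difference changed sign for 7 enzymes and the interaction for 5, most of whose values are not listed here. Those with the smallest p, Prdx1 (sex, 0.15 to 0.41) and Sod3 (interaction, -2.0 to -1.07), kept their sign; showing only these ranges was decided after the values were seen.

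Replicate numbers are shared between the genotypes, but same-numbered libraries did not deviate together (correlations -0.036, 0.026 and 0.029), and not every library correlated best with its own number. With the number as a replicate block, 0 genes passed. Depth limits Nqo1 and Hmox1, where counting error reached 9.6% and 8.5%.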
